A study of Mus musculus with 4 samples.

Results

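The genes described here encode the SR proteins and the hnRNP proteins, the main families of RNA-binding proteins that steer splicing. Members were the rows of the deposited gene table whose symbol is Srsf with a number or begins with Hnrnp and a letter, without "ps" in the symbol, and with at least 40 reads summed over the 4 libraries. There were 30 such genes among 55401 in the table, 10 Srsf genes and 20 Hnrnp genes. The rule used names and a minimum of reads, and no measured difference. Only 4 rows of these names fell outside it. Srsf12 had 1 read in all, and Srsf3-ps, Hnrnpa1l2-ps and Hnrnpa1l2-ps2, which are named as pseudogenes, had 15, 0 and 2 reads. The member with the fewest reads, Srsf4, had 2644, so the minimum of reads decided only Srsf12.

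The libraries came from cultured cells of C57BL/6 mice that the submitters name female germline stem cells (FGSCs), with ovary as the tissue and normal as the condition. Control cultures received the solvent DMSO and treated cultures received daidzein, an isoflavone of soy with weak oestrogen-like activity, and there were 2 libraries per group. The medium of both groups held serum, epidermal growth factor, basic fibroblast growth factor, leukemia inhibitory factor and glial cell line-derived neurotrophic factor. Neither the daidzein dose behind these libraries nor the length of treatment is given in the sources used here. Nothing in the labels states that equal-numbered libraries share a culture or that the 2 libraries of a group are separate cultures, so each p-value refers to spread among these libraries that may be only technical.

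SR proteins carry RNA recognition motifs and a tail rich in arginine and serine. They bind enhancer sequences in exons and recruit the U1 and U2 machinery, and kinases of the SRPK and CLK families phosphorylate their tails. The hnRNP proteins coat nascent transcripts, most of them through RNA recognition or KH motifs, and many silence exons or compete with SR proteins. Both families are expressed in nearly all cell types, and many of their genes tune their own output by splicing in a "poison" exon that sends the transcript to nonsense-mediated decay.

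Library totals ran from 16230400 to 18537134 counts. The label of the cells was checked against marker genes: of 12 germ cell markers, 0 had enough reads to test, 5 had 0 reads in all libraries, and their summed share ran from 1.62e-05% to 5.23e-05% of counts. For Ddx4, the germline RNA helicase, 2 reads were found in a single library, DMSO replicate 1. The 15 blood cell markers summed to 0.310% to 0.319% of counts, and 9 of them had enough reads to test. Highest were Gata2, at 22232 to 23545 reads per library, and Cpa3, at 11556 to 13583. Kit, a receptor kinase, had 10574 to 12205 and Ptprc, the leukocyte gene CD45, 2593 to 3187, while Fcer1a, Tpsb2, Cd3e and Hbb-bt had 0. Of 10 ovarian somatic and stromal markers 3 had 0 reads in every library, and the list summed to at most 0.000456% of counts. The defining germ cell transcripts were thus at or near 0, and the values below belong to cells with this make-up.

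How well a read can be assigned to a member depends on copies of its coding sequence elsewhere in the genome. In GENCODE M21 transcripts (GRCm38), 10 of 30 members had at least 1 other gene on the same sense strand at 95% identity or more over at least 50% of the longest coding sequence, 48 such copies in all, and most are processed pseudogenes. Hnrnpa3, an A/B-type hnRNP at chr2:75659261-75669407 on the plus strand, had 23 of them. The stretch below is coding bases 313 to 432, counted from the A of the start codon. Among 120-base windows aligned without gaps, it is where Hnrnpa3 and its 4 copies with the most reads differ most. It is shown because reads from such sequences can hardly be told apart. Capitals mark bases that differ from Hnrnpa3.
Hnrnpa3: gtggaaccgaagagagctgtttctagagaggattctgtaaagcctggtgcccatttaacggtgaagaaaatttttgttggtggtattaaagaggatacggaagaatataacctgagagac
Gm6793: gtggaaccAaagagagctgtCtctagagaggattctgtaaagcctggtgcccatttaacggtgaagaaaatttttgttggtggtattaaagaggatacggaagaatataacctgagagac
Gm12960: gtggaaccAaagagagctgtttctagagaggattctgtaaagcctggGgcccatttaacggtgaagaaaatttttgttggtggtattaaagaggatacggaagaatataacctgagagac

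Gm6793 and Gm12960 each differed from Hnrnpa3 at 2 bases of the window, and Gm11847 and Gm5641 at 0. Over the full alignments, with gaps not counted, Gm6793 (annotated as protein-coding, chr8:112013433-112015036, minus strand) differed at 7 of 1051 aligned coding bases. Gm12960 differed at 4 of 1063, Gm11847 at 1 of 1116 and Gm5641 at 0 of 1069. The identity given by blastn was 97.8% for Gm6793, 99.2% for Gm12960, 98.1% for Gm11847 and 100% for Gm5641. Gm6793 alone held more reads than the gene itself, and the other 3 held fewer: 14716 for Gm6793, 4384 for Gm12960, 3665 for Gm11847 and 1808 for Gm5641, against 5016 for Hnrnpa3. All 23 copies summed to 26308 reads, 524% of the reads of Hnrnpa3.

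Hnrnpk, a KH-domain protein that binds C-rich RNA, lies at chr13:58391142-58403343 on the minus strand. Its processed pseudogene Gm7964 (chr7:83755904-83757281, plus strand) held 13984 reads against 41198 for the gene. They differ at 10 of 1377 aligned coding bases. Coding bases 556 to 675, again the window with most differences, are shown with the bases of Gm7964 that differ in capitals.
Hnrnpk: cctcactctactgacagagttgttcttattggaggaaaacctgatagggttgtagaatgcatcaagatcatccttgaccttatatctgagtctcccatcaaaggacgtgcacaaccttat
Gm7964: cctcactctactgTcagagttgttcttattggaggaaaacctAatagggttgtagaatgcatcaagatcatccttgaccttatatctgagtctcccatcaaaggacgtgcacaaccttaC

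Hnrnpa1 (chr15:103240432-103246692, plus strand), which binds UAG-containing silencers, had a processed pseudogene, Gm10052 (chr9:123689233-123690192, minus strand), with 0 differences over 960 aligned coding bases. Gm10052 was given 16181 reads and Hnrnpa1 16845. The first 120 coding bases are therefore the same letters in both genes.
Hnrnpa1: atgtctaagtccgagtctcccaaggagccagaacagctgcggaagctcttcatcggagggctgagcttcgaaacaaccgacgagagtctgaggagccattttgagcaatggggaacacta

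For the other members the copies took a smaller share. Gm12966 held 2547 reads beside 20877 for Srsf5, Gm9761 1365 beside 33505 for Srsf3, and Gm12696 1251 beside 31521 for Hnrnpc. For Hnrnph2, Hnrnpf, Srsf10 and Hnrnpr the copies came to 1.59%, 0.294%, 0.105% and 0.0346% of the reads of the gene. No source used here says how the authors' counting treated a read that fits several loci, so the levels of Hnrnpa3, Hnrnpa1 and Hnrnpk are uncertain, and the fits below were repeated with the reads of all copies added to their gene.

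**Figure D1:**
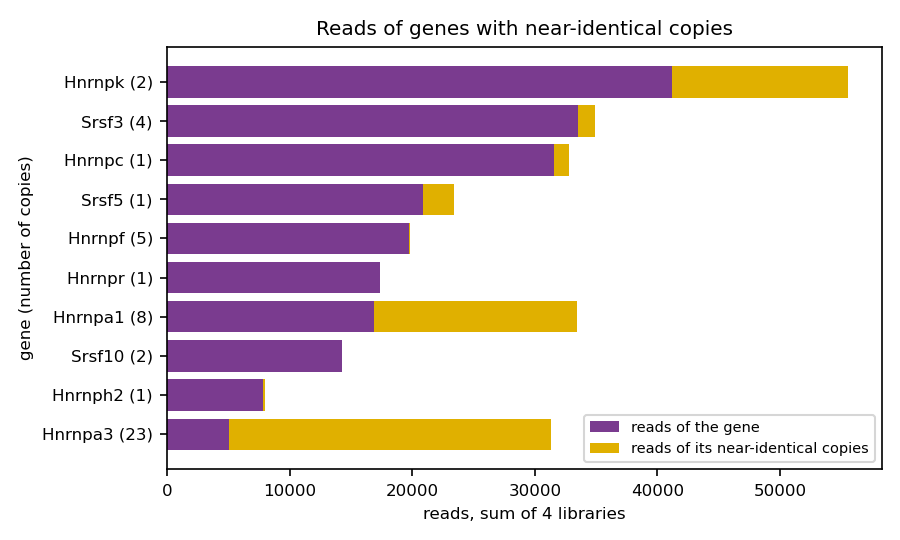
Reads summed over the 4 libraries (x axis, from 0) for the 10 members with near-identical copies (y axis, number of copies in brackets); purple is the gene and yellow its copies. The copies exceed the gene only for Hnrnpa3, at 26308 against 5016 reads, and come close for Hnrnpa1, at 16564 against 16845.

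A further limit is overlap with genes on the other strand, since no source used here gives the strand setting of the counting. The antisense transcript Gm12992 shares 43.0% of the exonic bases of Srsf4 but had only 15 reads, and Phykpl shares 29.1% of those of Hnrnpab and had 2240. Mettl23 and Mfsd11 share 15.6% and 9.74% of the exonic bases of Srsf2, with 454 and 708 reads. On the same strand, March2 shares 14.7% of those of Hnrnpm, with 1105 reads. Compared with the members concerned, these neighbours had few reads: Hnrnpab alone had 95395. That does not show how many reads the members lost, since the handling of reads that fit several genes is not given. The levels of members with large overlaps, such as Srsf4 and Hnrnpab, carry this uncertainty.

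Together the 30 genes took 243193 and 259770 reads in DMSO replicates 1 and 2 and 257514 and 278625 in daidzein replicates 1 and 2, at most 1.52% of a library's counts. The Srsf genes accounted for 0.356% ± 0.00350 of counts with DMSO and 0.350% ± 0.00250 with daidzein, and the Hnrnp genes for 1.15% ± 0.00994 and 1.15% ± 0.00118 (mean ± SD, n = 2 libraries each). The share of the transcriptome in these families was thus nearly the same in each library.

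Levels between genes are compared as FPKM, reads scaled to the exonic length of the gene and to the library total. The members are abundant transcripts: their median over 4-library means was 79.1 FPKM against 7.07 for the 11700 genes tested. All 30 lay above the median of the genes tested and 20 of 30 above percentile 90, and even the lowest member stood at percentile 52.7. The families had like medians, 79.8 FPKM for Srsf genes and 79.1 for Hnrnp genes. From highest to lowest the members spanned 62.2-fold. Of 29 neighbouring pairs in the order of levels, 13 had overlapping ranges over the libraries, and these pairs were spread along the whole order.

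Among the SR genes, Srsf2 was highest. Srsf2, also known as SC35 and recurrently mutated in human myeloid neoplasms, had 192 and 197 FPKM with DMSO and 186 and 186 with daidzein. Srsf7, an SR protein with a zinc knuckle that also serves mRNA export, had 127 and 129 with DMSO and 128 and 129 with daidzein. Srsf1, a prototype SR protein and an oncogene in some tumours, had 118 and 123 against 122 and 126. The libraries of Srsf7 and Srsf1 did not reach those of Srsf2.

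Srsf9, a shorter relative of Srsf1, followed with 113 and 108 FPKM with DMSO and 110 and 97.0 with daidzein. Srsf6 had 86.7 and 83.3 against 80.6 and 84.4, and Srsf5 had 76.0 and 77.8 against 72.5 and 76.8. Both have paired RNA recognition motifs, as Srsf4 does. Srsf3, the smallest SR protein and an adaptor for mRNA export, had 61.4 and 62.5 FPKM with DMSO and 62.4 and 59.5 with daidzein.

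The other SR genes were lower. Srsf10, a splicing repressor when dephosphorylated, ranged over the libraries from 28.9 to 29.9 FPKM and Srsf11 from 23.2 to 24.7. Srsf4 was the lowest SR gene, with 11.4 and 10.4 FPKM with DMSO and 9.98 and 11.2 with daidzein. Its groups crossed over, with DMSO replicate 1 and daidzein replicate 2 as the higher libraries.

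The highest members of all were A/B-type hnRNP genes. Hnrnpab, which encodes an RNA-binding protein also called CBF-A, had 507 and 498 FPKM with DMSO and 516 and 468 with daidzein. Hnrnpa2b1, whose protein binds pre-mRNA and helps sort RNA for transport, had 395 and 402 against 402 and 407. Per exonic length Hnrnpab was above Hnrnpa2b1 in each library. Per median length of the annotated coding transcripts, Hnrnpa2b1 was rank 1 of the members and Hnrnpab rank 2, so this order depends on the length used. By reads without regard to length Hnrnpa2b1 was also above Hnrnpab: Hnrnpa2b1 was rank 19 among all genes in the table, Hnrnpu 45 and Hnrnpab 50.

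Hnrnpa0, a gene of 1 annotated transcript, had 188 and 177 FPKM with DMSO and 176 and 176 with daidzein, and its range overlapped that of Srsf2. Hnrnph1, of the family that binds G tracts, had 130 and 133 against 131 and 135. Hnrnpu, a nuclear scaffold protein that also binds chromatin-associated RNA, had 126 and 129 against 123 and 128. Hnrnpc, which binds uridine tracts and competes with U2AF at them, had 104 and 103 against 109 and 106.

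Hnrnpk had 91.4 and 94.5 FPKM with DMSO and 91.2 and 91.8 with daidzein, and Hnrnpa1 had 77.8 and 79.1 against 74.2 and 78.2. With the reads of near-identical copies added, the mean of Hnrnpk would be 124 in place of 92.2 and that of Hnrnpa1 153 in place of 77.3. Hnrnpl, which binds CA repeats, had 76.7 and 76.5 against 75.5 and 76.4. Its paralogue Hnrnpll, known for controlling the alternative exons of Ptprc in lymphocytes, was the lowest member in FPKM, with 8.14 and 7.70 with DMSO and 7.78 and 8.33 with daidzein. Without regard to length, or per median coding transcript length, Srsf4 was rank 30 and Hnrnpll rank 28 or 29. For neither Hnrnpl nor Hnrnpll did the 95% interval of the fold between the groups exclude 1, as given below.

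Between these lay Hnrnpdl at 96.9 to 101 FPKM, Hnrnpf at 92.0 to 95.1, Hnrnpm at 80.7 to 81.0 and Hnrnpd, also called AUF1 and known for binding AU-rich mRNAs, at 72.0 to 75.7. The lower members were Hnrnph3 with 33.2 and 33.8 FPKM with DMSO and 34.1 and 31.9 with daidzein, Hnrnpul1 with 27.5 and 29.8 against 28.2 and 28.6, and Hnrnpul2 with 25.8 and 27.3 against 25.3 and 26.9. Hnrnph2, an X-linked relative of Hnrnph1, had 24.0 and 26.0 against 26.0 and 27.2. For each of these 4 genes the FPKM ranges of the groups overlapped.

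Hnrnpr, a relative of Syncrip, had 11.0 and 11.5 FPKM with DMSO and 11.2 and 11.4 with daidzein. Hnrnpa3 had 12.6 and 13.0 against 13.6 and 14.5. With its copies added, Hnrnpa3 would stand at 84.0 FPKM and move from rank 27 to rank 16 of the members. Exonic length matters as well: the union of annotated exons is 22199 bases for Hnrnpr and 1653 for Srsf9, and per kilobase of the median coding transcript Hnrnpr would move from rank 28 to 22 and Srsf9 from rank 9 to 18.

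**Figure D2:**
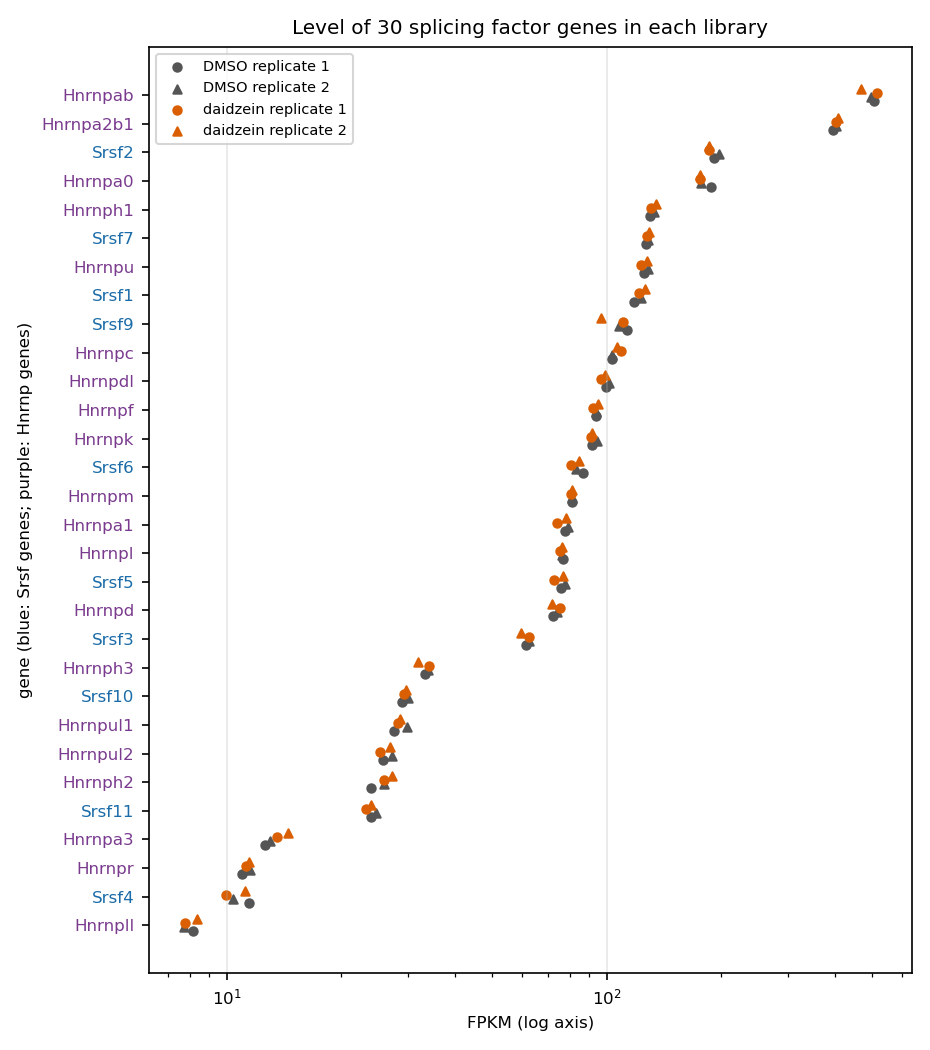
FPKM (x axis, log scale) of the 30 members (y axis, ordered by mean) in each of the 4 libraries; grey is DMSO, orange daidzein, circles replicate 1 and triangles replicate 2. The libraries of a gene lie close together beside the 62.2-fold span between Hnrnpab and Hnrnpll.

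Paralogues shared much of their coding sequence, and some of the 13 pairs compared stood at like levels while others did not. Srsf5 had 0.905 ± 0.0404 of the FPKM of Srsf6 with DMSO and 0.905 ± 0.00650 with daidzein, and Hnrnpul1 had 1.08-fold ± 0.0179 and 1.09-fold ± 0.0353 that of Hnrnpul2 (mean ± SD, n = 2). All such ratios depend on the length used. Scaled to the median coding transcript in place of exonic length, Srsf5 and Srsf6 stood at 202 and 199, but Hnrnpul1 and Hnrnpul2 at 73.7 and 36.6. Srsf1 had 1.09-fold ± 0.0668 and 1.202-fold ± 0.141 the FPKM of Srsf9. Other pairs lay farther apart. Hnrnph1 and Hnrnph2 were 85.4% identical over the aligned coding bases, and Hnrnph1 had 5.27-fold ± 0.217 the FPKM of Hnrnph2 with DMSO and 5.01-fold ± 0.0511 with daidzein. Hnrnpl and Hnrnpll, 66.2% identical, differed 9.68-fold ± 0.359 with DMSO and 9.44-fold ± 0.376 with daidzein. Srsf4 had 0.128 ± 0.00536 and 0.128 ± 0.00620 of the FPKM of Srsf6, at 74.8% identity. At 67.0% identity, Srsf3 had 0.485 ± 0.000768 of the FPKM of Srsf7 with DMSO and 0.475 ± 0.0204 with daidzein. The ratio of Hnrnpa1 to Hnrnpa3, 78.0% identical, was 6.17 and 6.07 with DMSO and 5.47 and 5.40 with daidzein. Both of these genes have many reads in near-identical copies. The group ranges of the ratio did not overlap for 5 of the 13 pairs: Hnrnpa1 with Hnrnpa3 and with Hnrnpa2b1, Hnrnph1 with Hnrnph2 and with Hnrnpf, and Hnrnpr with Syncrip. No share over all pairs of genes was computed, and nothing is read from this count.

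The annotated transcripts of the members were compared with those of other genes. A transcript of the class nonsense-mediated decay is annotated in GENCODE M21 for 19 of 30 members (63.3%), 9 of 10 Srsf genes and 10 of 20 Hnrnp genes, against 30.7% of 10345 protein-coding genes tested. A retained-intron transcript is annotated for 22 of 30 (73.3%), against 61.8%. These shares were compared without a test and without matching genes for level or number of annotated transcripts. Since the deposited values are sums per gene, a shift between a coding and a decay transcript of the same gene would not be seen unless it moved the sum.

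The main comparison asks whether daidzein changed the transcript level of any of these genes. With edgeR's quasi-likelihood test, adjusted over all 11700 genes tested, 0 of 30 members passed an adjusted p of 0.05, where 2 of all genes (0.0171%) did, and DESeq2 also called 0. At an unadjusted p under 0.05 there were 0 members, against 341 of all genes (2.91%). Folds of daidzein over DMSO ran from 0.936 to 1.09, and 11 members were above 1 and 19 below. The median fold was 0.989, against 0.998 over all genes tested, of which 51.3% were below 1. In bulk RNA such a fold cannot tell a change per cell from a change in the mix of cells.

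The intervals give the range of folds left by the spread among these libraries. That spread may be only technical, so the intervals do not bound an effect across separate cultures. For 29 of 30 members the 95% interval of the fold lay within 1.2-fold either way, against 47.8% of all genes tested. Intervals are narrower for genes with more reads, and the members are abundant. No share over genes of like level was computed, so nothing about stability is read from this. The exception was Hnrnpa3, whose interval reached 1.21. The lowest bound, 0.849, was that of Srsf9. A missing call does not show equality, but folds beyond these bounds are outside the intervals of the 30 genes, before any allowance for the number of genes.

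The values of the daidzein libraries did not overlap those of the DMSO libraries, in CPM (counts scaled to the library total after TMM normalization), for 5 members that were higher and 6 that were lower. Over all genes tested, 14.7% lay apart in the higher and 15.0% in the lower direction, so these counts are near the background. The higher ones were Hnrnpa3, Hnrnph2, Hnrnpc, Hnrnpa2b1 and Srsf7. The lower ones were Srsf2, Hnrnpa1, Hnrnpdl, Hnrnpk, Hnrnpl and Srsf11.

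Of the SR genes 3 were above and 7 below a fold of 1, with a median fold of 0.971. Srsf9 had the smallest p of them: 188 and 178 CPM with DMSO and 184 and 160 with daidzein, a fold of 0.936 (95% interval 0.849 to 1.03, unadjusted p = 0.173). The lower mean came from daidzein replicate 2, and daidzein replicate 1 lay between the DMSO libraries. Srsf2 had 570 and 582 CPM with DMSO and 553 and 548 with daidzein, a fold of 0.955 (0.887 to 1.03, unadjusted p = 0.209), and its groups did not overlap. Srsf6, Srsf5 and Srsf4 had folds of 0.970, 0.971 and 0.971, all with overlapping groups, and Srsf11 had 0.972 with its groups apart.

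Srsf1, a splicing activator, was the SR gene with the highest fold, 1.03 (0.953 to 1.11), at 679 and 701 CPM with DMSO and 699 and 718 with daidzein. Srsf7 lay at 452 and 455 CPM with DMSO and 456 and 456 with daidzein, a fold of 1.01 (0.933 to 1.08). Srsf3 and Srsf10 had folds of 0.985 and 1.00, both with overlapping groups. An adjusted p of 1.00 by edgeR applied to each of the 10 SR genes.

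Of the Hnrnp genes 8 were above and 12 below a fold of 1, with a median fold of 0.995. Hnrnpa3 had the smallest p of all 30 members, with 68.4 and 70.2 CPM with DMSO and 73.7 and 77.7 with daidzein. Its fold was 1.09 (0.988 to 1.21, unadjusted p = 0.0813), and the groups did not overlap. With the reads of its 23 copies added, the libraries held 434 and 450 CPM with DMSO and 476 and 454 with daidzein, and the fold was 1.05 (0.973 to 1.14, unadjusted p = 0.191).

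Hnrnph2 had 106 and 113 CPM with DMSO and 114 and 118 with daidzein, a fold of 1.06 (0.967 to 1.17, unadjusted p = 0.195). Hnrnpc had 450 and 444 against 474 and 458, a fold of 1.04 (0.966 to 1.12, unadjusted p = 0.270). In both genes the daidzein libraries lay above the DMSO libraries. Hnrnpa2b1 had 2615 and 2640 CPM against 2661 and 2670, a fold of 1.01 (0.945 to 1.09). Hnrnpll had 95.4 and 89.7 CPM against 91.4 and 96.8, a fold of 1.02 (0.923 to 1.12).

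In the other direction Hnrnpa0 had 505 and 473 CPM with DMSO and 473 and 469 with daidzein, a fold of 0.964 (0.892 to 1.04, unadjusted p = 0.329). Its difference came mostly from DMSO replicate 1, since DMSO replicate 2 overlapped the daidzein libraries. Hnrnpa1 had 246 and 249 CPM against 235 and 245, a fold of 0.971 (0.897 to 1.05), and 0.981 with its copies added. Hnrnpk and Hnrnpl had folds of 0.984 and 0.992, and Hnrnpu, at 1463 and 1490 against 1436 and 1473 CPM, had 0.985. The other 10 Hnrnp genes ranged in fold from 0.975 for Hnrnpdl to 1.01 for Hnrnph1.

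**Figure D3:**
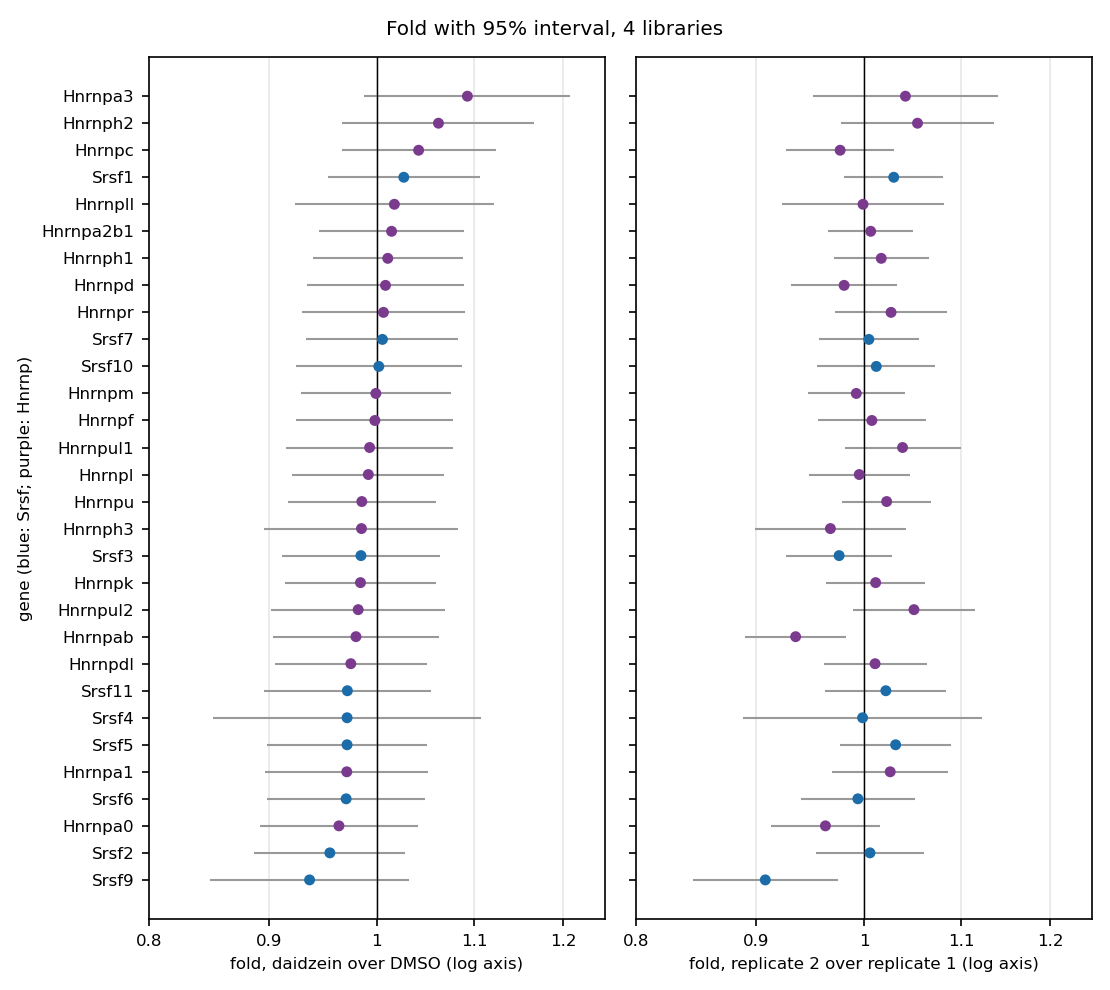
Fold (points) with 95% interval (lines) from edgeR for the 30 members, on log x axes: daidzein over DMSO at left, replicate 2 over replicate 1 at right, genes ordered by the left panel, Srsf genes blue and Hnrnp genes purple. Each interval at left includes 1; at right those of Srsf9 and Hnrnpab, with folds of 0.908 and 0.935, do not.

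The other comparison sets the libraries numbered 2 against those numbered 1, across both treatments. Over all genes this contrast called more than daidzein did, 53 genes (0.453%), of which 46 were higher and 7 lower in replicate 2. Among the members 0 were called by edgeR and 0 by DESeq2, and 2 had an unadjusted p under 0.05, against 13.8% of all genes. Folds ran from 0.908 to 1.05, with 18 above and 12 below 1 and a median of 1.01, against 1.00 over all genes tested. All 30 intervals lay within 1.2-fold either way, against 48.4% of all genes, which include many with fewer reads.

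The 2 members with the smallest p were both lower in replicate 2. Srsf9 had 188 CPM in replicate 1 and 178 in replicate 2 with DMSO, and 184 and 160 with daidzein, a fold of 0.908 (0.846 to 0.975, unadjusted p = 0.0101, adjusted p = 0.203). Hnrnpab had 1416 and 1381 with DMSO and 1445 and 1295 with daidzein, a fold of 0.935 (0.890 to 0.982, adjusted p = 0.203). In both genes the gap between the numbers was wider with daidzein, and daidzein replicate 2 was the lowest library. Without DMSO replicate 1, Hnrnpab passed the test with an adjusted p of 0.0188, and without daidzein replicate 1, Srsf9 passed with 0.0334. Each of these fits leaves 1 library, of 1 treatment, in the replicate 1 arm, so the spread comes from the replicate 2 libraries and the lone library is assumed to vary like them. Without a filter on low counts Hnrnpab passed with 0.0408.

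Further genes lower in replicate 2 were Hnrnpa0, Srsf3, Hnrnph3 and Hnrnpc, with folds of 0.963, 0.976, 0.968 and 0.977. Hnrnpa0 and Hnrnpc were lower in both groups, while Srsf3 and Hnrnph3 were lower with daidzein and slightly higher with DMSO: Srsf3 had 487 and 492 CPM with DMSO and 496 and 468 with daidzein, and Hnrnph3 had 105 and 106 against 108 and 100.2. Among those higher in replicate 2, Hnrnpul2 had 184 and 194 CPM with DMSO and 181 and 190 with daidzein, a fold of 1.05 (0.989 to 1.11, unadjusted p = 0.103). Hnrnph2 had a fold of 1.05 and Hnrnpul1, at 239 and 257 against 246 and 247 CPM, one of 1.04. Hnrnpu, Srsf1 and Srsf5 followed with 1.02, 1.03 and 1.03.

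The replicate 2 libraries lay apart from the replicate 1 libraries for 7 members that were higher and 4 that were lower, against 22.0% and 21.8% of all genes tested. Within the groups, 14 members were higher in replicate 2 in both, 5 were lower in both and 11 moved in opposite directions. On the log2 CPM scale the difference of replicate 2 from replicate 1 ran from -0.15 to 0.10 with DMSO and from -0.20 to 0.15 with daidzein. Srsf4 stood out among the opposite ones, at -0.15 and 0.15 (41.0 and 36.8 CPM with DMSO, 35.8 and 39.7 with daidzein), followed by Hnrnpll at -0.09 and 0.08. With 1 library for each number in each group, the difference between these differences could not be tested.

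**Figure D4:**
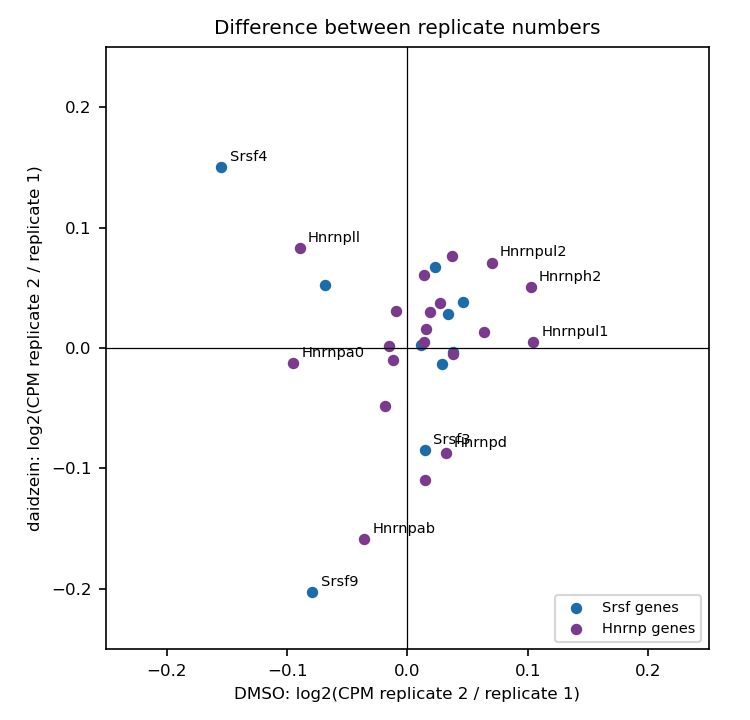
Log2 ratio of CPM in replicate 2 over replicate 1, for DMSO (x axis) and daidzein (y axis), 1 point per member, Srsf genes blue and Hnrnp genes purple. The 14 members at upper right and the 5 at lower left moved the same way in both groups; Srsf9 at lower left and Srsf4 at upper left lie farthest out.

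Length and base composition of the genes were set beside the differences of both comparisons. Over the 11700 genes tested, the log2 difference of replicate 2 from replicate 1 had a Spearman correlation of 0.30 with exonic length, and -0.27 with GC content over 11692 genes. Over the 30 members the values were 0.37 and -0.37. For daidzein against DMSO they were 0.02 with length and -0.21 with GC content over all genes, and 0.43 and -0.54 over the members. These are descriptions across genes that share the same 4 libraries and are not independent. With a trend on GC content or on length removed, 0 members were called in either comparison. By number, 6 members had an unadjusted p under 0.05 by edgeR with the GC trend removed, against 2 in the main fit. Over all genes these counts were 1560 and 1614.

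The members act with other splicing genes, which were followed in 7 lists of 119 genes, 102 of them tested. For daidzein against DMSO 0 of 102 were called by edgeR and 0 had an unadjusted p under 0.05, with 56 above and 46 below a fold of 1. By replicate number, 3 were called higher and 1 lower in replicate 2, where 0.453% of all genes tested were called, and 20 had an unadjusted p under 0.05, against 13.8% of all genes. With a trend on exonic length removed, 0 of all genes tested were called by number, as in the 3 limma fits on FPKM, so each of these 4 calls (Son, Srek1, Pcbp4 and Smg1) ended there.

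The U1, U2 and U2AF subunits, which mark the splice sites that SR and hnRNP proteins help to choose, had 18 tested members. For daidzein 7 were above and 11 below a fold of 1, with a median of 0.994, and Snrnp70, the U1 protein contacted by SR tails, had the smallest p at a fold of 0.929 (0.848 to 1.02). By number 13 of 18 were below 1. The Sm core, the ring of proteins on spliceosomal RNAs, had 5 of 7 above 1 with daidzein, with Snrpe at 1.08, and 5 of 7 below 1 by number. No gene of either list was called in either comparison, where 0.0171% and 0.453% of all genes were.

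The kinases that phosphorylate SR tails had 8 tested members. With daidzein their median fold was 1.00, with Clk4 at 0.941 and Dyrk1a at 1.03, and 0 were called. By number Clk1 had the smallest p, with a fold of 1.09 (0.992 to 1.21). Srpk3 had too few reads to test, 4 to 8 per library.

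The list of SR-related proteins, most with such tails and none an Srsf gene, had 10 above and 10 below a fold of 1 with daidzein. Its median fold was 1.00, and Srrm2, at 0.934, had the smallest p. By number 18 of 20 were above 1, where 5861 of 11700 genes tested were, and 2 were called in the fit without a length term. Son, a large protein of nuclear speckles, had 5860 and 6945 reads with DMSO and 5704 and 7233 with daidzein, a fold of 1.14 (1.07 to 1.21, adjusted p = 0.0430). Srek1 had 604 and 825 against 638 and 856 reads, a fold of 1.26 (1.14 to 1.39, adjusted p = 0.0356). Srrm2 followed at 1.11 with an adjusted p of 0.106. The 10 Srsf genes, by comparison, had 6 above and 4 below 1 by number.

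The hnRNP proteins with other symbols, such as the PTB and PCBP proteins, had 13 of 20 above 1 with daidzein, with Ptbp3 at 1.09 (0.984 to 1.22). By number Pcbp4, a poly(C)-binding protein, was called lower in replicate 2 until the length trend was removed, with 3446 and 3267 reads with DMSO and 3789 and 3585 with daidzein, a fold of 0.880 (0.829 to 0.933, adjusted p = 0.0477). Ptbp3 was at 1.15 with an adjusted p of 0.0823. Counts of 7 above and 13 below 1 were seen over that list by number.

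Among 26 other splicing regulators 15 were tested, and 5 had 0 reads in all libraries: Rbfox1, Rbfox2, Nova2, Esrp1 and Rbm24, most of them known from nerve, muscle or epithelium. With daidzein 7 were above and 8 below 1, with Celf3 at 0.920, Mbnl1 at 1.08 and Nova1 at 1.29 (0.940 to 1.78) as those with the smallest p, and 0 were called. By number 11 of 15 were above 1, with Celf2 at 1.15 (1.07 to 1.24, adjusted p = 0.0670), and 0 were called.

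Nonsense-mediated decay removes the poison-exon transcripts of those members that make them. Of its 14 tested genes 9 were above and 5 below 1 with daidzein, with a median fold of 1.02, and Upf3b at 1.12 (0.993 to 1.26) and Upf2 at 1.095 (0.988 to 1.21) had the smallest p. None was called. By number Smg1, the kinase of the pathway, with 23984 exonic bases, was called higher in replicate 2 until the length trend was removed, with 1727 and 2261 reads with DMSO and 1653 and 2443 with daidzein, a fold of 1.29 (1.197 to 1.39, adjusted p = 0.00233). The list as a whole had 5 above and 9 below 1 by number.

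**Figure D5:**
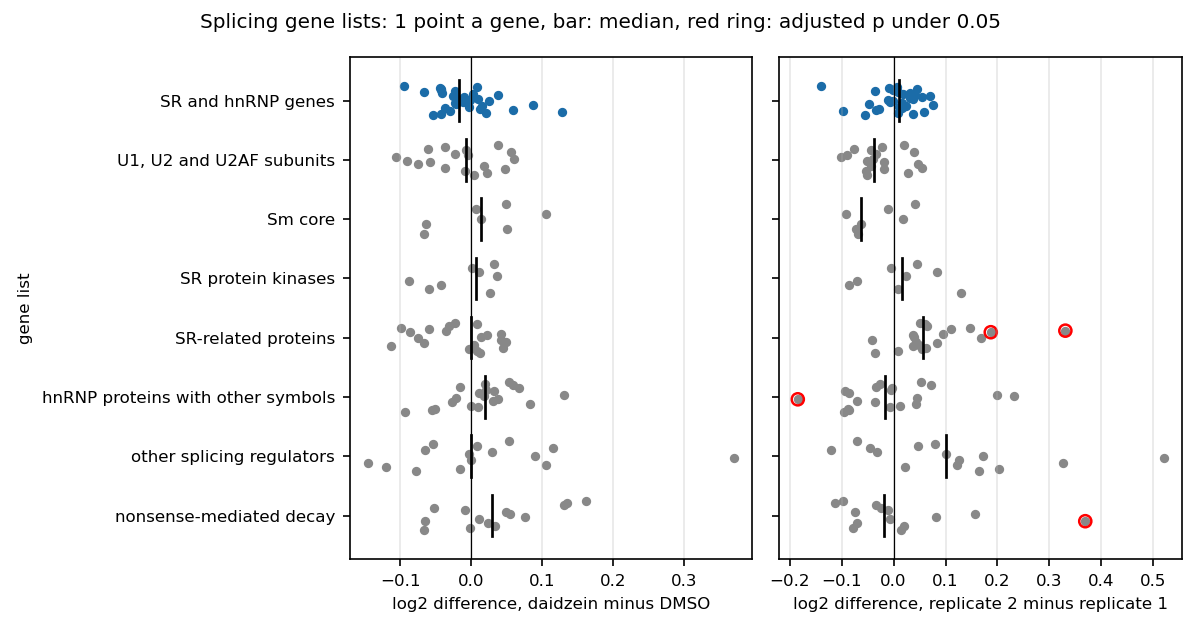
Log2 difference of daidzein from DMSO (left) and of replicate 2 from replicate 1 (right) for the 30 members and 7 lists of other splicing genes (y axis), 1 point per gene tested, black bars at the median, red rings at an adjusted p under 0.05. Rings are seen only at right, on Srek1, Son, Pcbp4 and Smg1; the 30 members lie between folds of 0.908 and 1.09 in both panels.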

How the data were processed

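RNA was sequenced in 4 libraries of cultured cells, grouped by their titles. The authors deposited 1 table with a whole-number read count per gene, not normalized, and FPKM values; 100% of the FPKM values with a read lay within 0.01 of the count scaled to exonic length and library total. Per the submitters' processing notes the build was mm9 and the tools DESeq2, HTSeq 0.6.1 and HISAT2 2.0.1, with no role given. Gene coordinates in the table equal those of GENCODE M21 on GRCm38 for 30 of 30 members, so GRCm38 is named in the text.

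Tests on counts used edgeR 4.0.16 under R 4.3.3 (TMM, default filterByExpr, quasi-likelihood F test, Benjamini-Hochberg over 11700 genes at 0.05), once for treatment and once for replicate number. A fit with treatment, number and their interaction has no residual degrees of freedom. Alternatives used DESeq2 1.42.0 (no independent filtering) and limma 3.58.1. Steps were tested on simulated data. Copies were found with blastn 2.17.0. For the 107 symbols on several rows the row with most reads was used. A count of 0 allows up to 3 counts, 0.162 to 0.185 CPM, counting error only.

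The members and lists were chosen with earlier results of these data known. Values per library are given for the 6 members with the smallest p in each direction and comparison, the 5 highest and 4 lowest in FPKM, and 12 well-known members; of other lists, up to 3 genes with the smallest p and those called. Srsf3-ps, outside the members, had 0 and 4 reads in DMSO replicates 1 and 2 and 1 and 10 in daidzein replicates 1 and 2. Summed to 4 and 11, these gave a ratio per total of 2.57 (95% exact binomial interval 0.761 to 11.1). That interval holds counting error only and leaves out the spread between libraries. Planned counts of amino-acid repeats were not made here; coding bases were compared instead. The value of 1 listed marker gene is not reported here.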

Additional observations from a re-analysis of the deposited data

How the results depend on the processing

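For daidzein against DMSO the count of members called stayed 0 in all 15 alternatives. All 450 recomputed member values kept their side of the threshold, 35 had the other sign, and the median log2 difference of the members lay between -0.0289 and -0.0029. By replicate number 447 of 450 values kept their side and 57 had the other sign; the count of members, 0, was 1 without a filter on low counts (Hnrnpab) and lay at 0 or 1 when a library was left out. Over all genes the daidzein count, 2, was 1 by DESeq2, 11 without a filter, 1 with a stricter filter, and 0, 1 and 0 by limma on log2(FPKM + 1), on log2(FPKM + 0.1) and on log2(FPKM + 1) without a filter; it ran from 4 (without DMSO replicate 1) to 17 (without daidzein replicate 2). The number count, 53, was 27 by DESeq2, 264 without a filter, 115 with robust estimation, 0 in the 3 limma fits, 109 with a GC trend removed and 0 with a length trend removed; it ran from 30 (without daidzein replicate 2) to 588 (without daidzein replicate 1), and was 413 without DMSO replicate 1. Of the 5 members highest in FPKM, 3 stayed so in CPM, 3 per median coding transcript length and 4 with copies added; the addition of copies and the transcript length were chosen after seeing the data.

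With the replicate number as a block the daidzein count was 27, with 0 members among them. In that edgeR fit 2 members had an unadjusted p under 0.05, as had 748 of all genes. With treatment as a term in the number fit (the same replicate block fit) the number count was 251. Same-numbered libraries had deviations correlated at 0.09 over all genes tested, those with few reads included. The labels tie the numbers to no shared culture or batch. Whether the numbers are a pairing cannot be settled from these values, and the main daidzein fit leaves any difference by number in its spread. Depth limits Srsf4 most, at 611 to 739 reads per library.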
